A study of Mus musculus with 44 samples.

Results

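The genes described are 8 that monocytes and macrophages are known to express: the small S100 proteins S100A4, S100A6, S100A10 and S100A11, the intermediate filament protein vimentin (VIM), the annexins ANXA1 and ANXA2, and the scaffold protein AHNAK. They were looked up by symbol, and the list was drawn up with earlier results of these data known. All 8 were found once in each of 2 tables of values per gene, among 8218 genes measured in cells sorted from the injured spinal cord and 12335 genes measured in cultured cells. The questions asked were how the 8 genes differed between monocytes and microglia, how they changed over the days after injury, and how they changed under the cytokine TGFb1.

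S100 proteins are small proteins that change shape on binding calcium and then dock onto other proteins. S100A10 is the exception, being held in the active shape without calcium, and it links a pair of ANXA2 molecules into a complex at the cell membrane to which the very large protein AHNAK binds. S100A11 binds ANXA1 in a similar way, and S100A4 binds the heavy chain of non-muscle myosin (MYH9). ANXA1 is also a secreted anti-inflammatory protein that acts on formyl peptide receptors and is stored in large amounts in neutrophils. VIM forms the intermediate filaments of motile cells. Microglia are the resident macrophages of the brain and cord, whereas monocytes enter an injured cord from the blood and become macrophages there.

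RNA was sequenced from 44 libraries of C57BL/6 mice. In the cord, 13 libraries came from sorted microglia (3 at time 0, and pairs after 1 h, after 16 h and on days 1, 3 and 7) and 8 from sorted monocytes, as pairs after 16 h and on days 1, 3 and 7. Every cord donor had a contusion of 200 kdyn after laminectomy by its label. The time 0 mice are listed as injured like the rest, no sorting gate is named, and 1 of the microglia libraries titled 1 h also carries a time tag of 2 h. In culture, 11 libraries held bone marrow cells turned into macrophages by M-CSF, and 12 held microglia taken from glial cultures of newborn mice. TGFb1 was given at 100 ng/ml for 0, 1, 3, 6, 16 or 20 h, with 2 libraries per time except 1 of macrophages at 6 h. No culture was kept without TGFb1 for the same hours, so time in culture and TGFb1 cannot be told apart. No label says whether the libraries of a group came from separate animals or dishes, so the p-values below measure the spread between libraries only.

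Values are the authors' scaled counts, in which a value of exactly 1 stands where no read was counted. They are not corrected for gene length, so each gene is compared with itself only. Depth differed between the cells. The cord microglia libraries held an estimated 30505 to 185670 reads and the cord monocyte libraries 132117 to 728109, and 1 read was worth 0.853 to 4.67 in the former and 0.170 to 0.850 in the latter. The cultured libraries held 1171515 to 2249042. The shallowest libraries were replicate 3 of microglia at time 0 and replicate 2 of microglia at day 3, and every in vivo count below was also computed without both.

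The sorted cells matched their labels in part. Of 11 microglia markers measured, 7 were lower in the monocytes and 0 higher, and of 9 monocyte markers 5 were higher, CCR2 among them, and 0 lower. The summed shares of both sets overlapped between the cells. Microglia markers made up 0.158 to 1.31% of the microglia libraries and 0.0270 to 0.358% of the monocyte libraries. Monocyte markers made up 0.321 to 0.810% of the microglia libraries and 0.593 to 1.53% of the monocyte libraries. Markers of other myeloid cells were higher in the monocytes too: of 4 border macrophage markers F13A1 and PF4, with 0 lower, and both dendritic cell markers measured, FLT3 and CD209A. Border macrophage markers summed to 0.0533 to 0.234% of the monocyte libraries and 0.0150 to 0.0472% of the microglia libraries, with dendritic cell markers at 0.00587 to 0.0253% and 0.00130 to 0.0107%. In the microglia libraries of 16 h and day 7 and in replicate 2 of day 3, no read of FLT3 or CD209A was counted. These libraries were shallower than the monocyte libraries of the same times, so the dendritic cell marker difference lies near the floor. The libraries labelled microglia also carried neutrophil transcripts. The 13 neutrophil markers measured made up 4.40 to 22.9% of each microglia library and 0.140 to 0.574% of each monocyte library, and 11 of them were lower in the monocytes. Their part in the differences between monocytes and microglia was not tested, and the values are given where they move with a member gene. A fit with their share was run only for the course of the microglia alone. In these pooled cells, a higher share of a cell type and more RNA per cell cannot be told apart.

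RefSeq promoter sequence (build GRCm38.p6) was matched to 7 of the 8 genes, all but S100A10, as the 250 bases before the gene start. Those of S100A4 and S100A6, which lie on chromosome 3 with only S100a5 as a coding gene between them, and those of VIM and ANXA1 are printed because these genes showed the contrasting patterns described next. They are chr3:90603520-90603769 and chr3:90612644-90612893, both on the plus strand, chr2:13574061-13574310 on the plus strand, and chr19:20390672-20390921 on the minus strand. Each is written 5′ to 3′ along its gene, and the capitals mark a match to a motif searched on both strands.
S100A4: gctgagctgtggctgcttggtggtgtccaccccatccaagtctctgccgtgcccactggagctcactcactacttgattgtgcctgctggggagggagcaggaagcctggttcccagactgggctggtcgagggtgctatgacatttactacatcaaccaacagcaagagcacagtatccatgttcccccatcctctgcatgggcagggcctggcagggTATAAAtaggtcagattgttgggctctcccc
S100A6: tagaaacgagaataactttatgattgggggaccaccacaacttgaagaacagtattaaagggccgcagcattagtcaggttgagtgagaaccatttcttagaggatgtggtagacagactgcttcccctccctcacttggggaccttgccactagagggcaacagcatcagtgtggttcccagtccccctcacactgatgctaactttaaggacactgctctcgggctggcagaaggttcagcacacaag
VIM: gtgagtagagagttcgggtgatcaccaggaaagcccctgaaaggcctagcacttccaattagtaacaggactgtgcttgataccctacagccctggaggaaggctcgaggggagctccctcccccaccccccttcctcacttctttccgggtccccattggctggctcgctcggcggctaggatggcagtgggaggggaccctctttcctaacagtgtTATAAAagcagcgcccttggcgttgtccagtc
ANXA1: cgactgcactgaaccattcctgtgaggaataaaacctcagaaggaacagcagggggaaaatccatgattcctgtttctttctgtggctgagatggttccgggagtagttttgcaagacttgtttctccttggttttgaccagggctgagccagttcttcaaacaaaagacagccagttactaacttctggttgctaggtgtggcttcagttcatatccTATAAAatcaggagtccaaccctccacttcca
The letters TATAAA, the core promoter box, were found in 4 of the 7 windows, those of S100A4, VIM, ANXA1 and ANXA2, and in 12.4% of the 32851 windows of the same length in the RefSeq table. S100A6 had none of the 4 motifs searched. TGANTCA (AP-1) was found in the windows of S100A11 and ANXA2 only among the 7, and in 6.75% of all. GGGCGG (GC box) was found in 3 of the 7, those of S100A11, ANXA2 and AHNAK, and in 32.7% of all. CAGACA (Smad box) was found in 0 of the 7 and in 17.1% of all. S100A10 and S100A11 are neighbours on another stretch of chromosome 3.

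In the injured cord the 8 genes did not behave as a block. Averaged over the 4 times at which both cells were sorted, S100A10, S100A4, VIM, AHNAK and ANXA2 were higher in monocytes, ANXA1 and S100A6 were lower, and S100A11 did not pass the test. With limma on log2(value + 1) and a Benjamini-Hochberg adjusted p under 0.05 over all 8218 genes, 5 members were called higher, against 3.97% of all genes, and 2 lower, against 3.6%. The median log2 difference of the members was 1.01 and that of all genes 0.05. S100A10, S100A4, VIM and ANXA1 kept their call under all 25 other settings, whereas the call of S100A6 was lost in 15 of them, that of AHNAK in 9 and that of ANXA2 in 3.

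**Figure D1:**
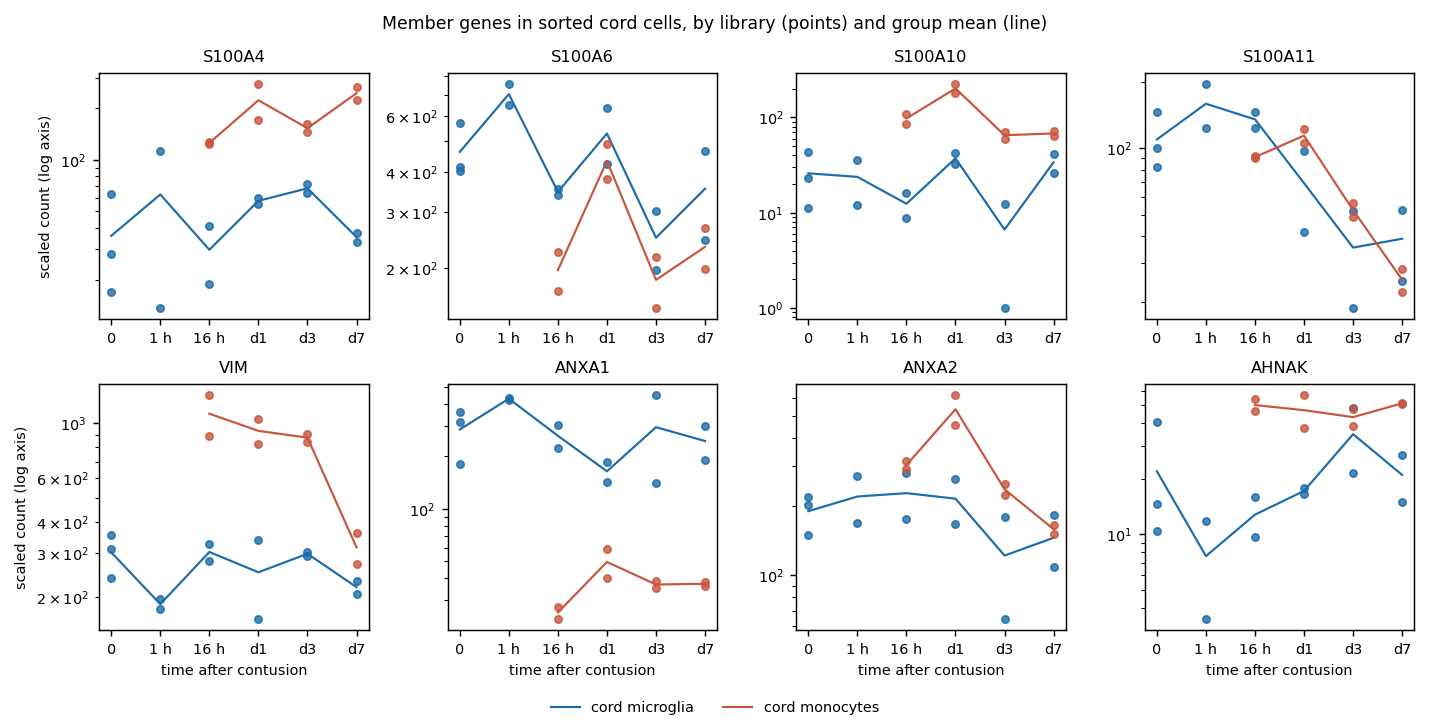
Scaled counts of the 8 genes in each sorted cord library (points, log axis) and the mean of each group (lines) against time after contusion, for microglia (blue) and monocytes (red). All monocyte points lie above all microglia points from 16 h on for S100A4 and S100A10, and all lie below for ANXA1.

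S100A10, the partner of ANXA2, was the member raised most in monocytes. Its value in monocytes was 85.7 and 110 at 16 h, 223 and 181 at day 1, 70.2 and 60.1 at day 3, and 72.2 and 63.8 at day 7. In microglia it was 16.0 and 8.89 at 16 h, 42.2 and 32.2 at day 1, 12.3 and 1 at day 3, and 26.3 and 41.5 at day 7. Every monocyte library stood above every microglia library of these times, and the level in monocytes was highest at day 1. The microglia values rest on few reads, at most 38 in any library, and the value of 1 in replicate 2 at day 3 means that no read was counted. The log2 difference was 2.51 ± 0.36 (SE), a 5.68-fold difference with an adjusted p of 1.92e-05 by limma.

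S100A4, which binds non-muscle myosin, was also higher in every monocyte library. Monocytes gave 124 and 127 at 16 h, 276 and 170 at day 1, 161 and 145 at day 3, and 268 and 223 at day 7. Microglia of the same times gave 40.9 and 18.8, 60.0 and 55.3, 72.1 and 64.3, and 37.6 and 33.2. The lowest monocyte library was thus above the highest microglia library, and the monocyte values at day 7 were above those at 16 h. Few reads lie behind some microglia values, 10 and 8 at day 7 and 16 in replicate 2 at day 3. The difference was 1.98 ± 0.32 on the log2 scale, or 3.96-fold, with an adjusted p of 8.58e-05 by limma.

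S100A6, encoded next to S100A4 beyond S100a5, did not share its direction. Monocytes gave 170 and 224 at 16 h, 488 and 379 at day 1, 217 and 150 at day 3, and 199 and 267 at day 7. Microglia gave 338 and 355, 424 and 633, 301 and 197, and 244 and 465 at the same times. The groups overlapped, with monocytes below microglia at 16 h alone without overlap. Over microglia of all times, S100A6 was 197 in the library with the lowest neutrophil share, at 4.40%. It was 651, 571 and 754 in those with the highest, at 22.9%, 22.2% and 21.1%. At shares between these it varied widely, with 633 at 10.7% and 244 at 15.1%. The part of the neutrophil share in the S100A6 difference was not tested. The mean difference was -0.52 ± 0.16 on the log2 scale (1.43-fold lower, adjusted p 0.0421 by limma), and the adjusted p ranged from 0.0130 to 0.206 over the other settings. Across the 10 in vivo groups, the mean log2 levels of S100A4 and S100A6 had a Pearson correlation of -0.53, a description of groups that share cell type and depth.

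S100A11, the partner of ANXA1, did not differ beyond its error. Its mean log2 difference was 0.12, with a 95% interval of -0.41 to 0.65 and an adjusted p of 0.847 by limma. Monocytes gave 90.3 and 92.3 at 16 h, 123 and 106 at day 1, 56.2 and 48.5 at day 3, and 28.3 and 22.1 at day 7. Microglia gave 147 and 124, 97.5 and 41.5, 51.9 and 18.8, and 52.6 and 24.9 at these times. The values of both cells thus ran from higher at 16 h to lower at day 7, overlapping at day 3 and day 7. Over microglia of all times, S100A11 was 18.8 at the lowest neutrophil share, 4.40%. It was 196, 82.4 and 124 at the highest, 22.9%, 22.2% and 21.1%. Between these it varied widely, with 147 at 15.0% and 24.9 at 14.7%. The part of the neutrophil share was not tested. Only 3 of the 21 in vivo values of S100A11 and 6 of those of AHNAK were whole reads within 0.05 of a read, against 17 to 21 for the other 6 genes. Fractions can arise where reads are shared between genes, and S100A11 has a named pseudogene in the reference, so both are uncertain.

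VIM, the intermediate filament protein, was higher in monocytes until day 3 and close to microglia at day 7. Monocytes gave 891 and 1293 at 16 h, 1038 and 826 at day 1, 906 and 844 at day 3, and 364 and 271 at day 7. Microglia gave 279 and 328, 340 and 164, 304 and 293, and 207 and 232. Monocytes were above microglia without overlap within each of the 4 times, but the monocyte libraries of day 7 overlapped with microglia of earlier times. The mean difference was 1.46 ± 0.15 on the log2 scale (2.76-fold, adjusted p 3.74e-08 by limma).

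ANXA1 ran the other way. Monocytes gave 27.5 and 23.3 at 16 h, 40.0 and 59.1 at day 1, 38.6 and 35.0 at day 3, and 38.2 and 36.0 at day 7. Microglia gave 302 and 224, 142 and 187, 449 and 141, and 192 and 299. Every monocyte library was below every microglia library. The difference was -2.61 ± 0.22 on the log2 scale, 6.10-fold lower with an adjusted p of 1.35e-09 by limma. ANXA1 is a neutrophil-rich gene, and its values are set beside the neutrophil markers here. In microglia it was 141 and 142 in the pair of libraries with the lowest neutrophil share, at 4.40% and 7.93%, and 425 and 358 in the pair with the highest, at 22.9% and 22.2%. At shares between these it varied widely, from 182 at 16.1% to 449, the highest of all, at 17.0%. S100A8 and S100A9, the S100 genes that mark neutrophils, had log2 differences of -5.56 and -5.84 between monocytes and microglia. FPR2, a receptor of ANXA1 that neutrophils also carry, was lower in monocytes by 1.83 on the log2 scale (adjusted p 0.0097 by limma). It is 1 gene of a list of 8 partners and receptors measured, and its bearing on ANXA1 was not tested.

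**Figure D2:**
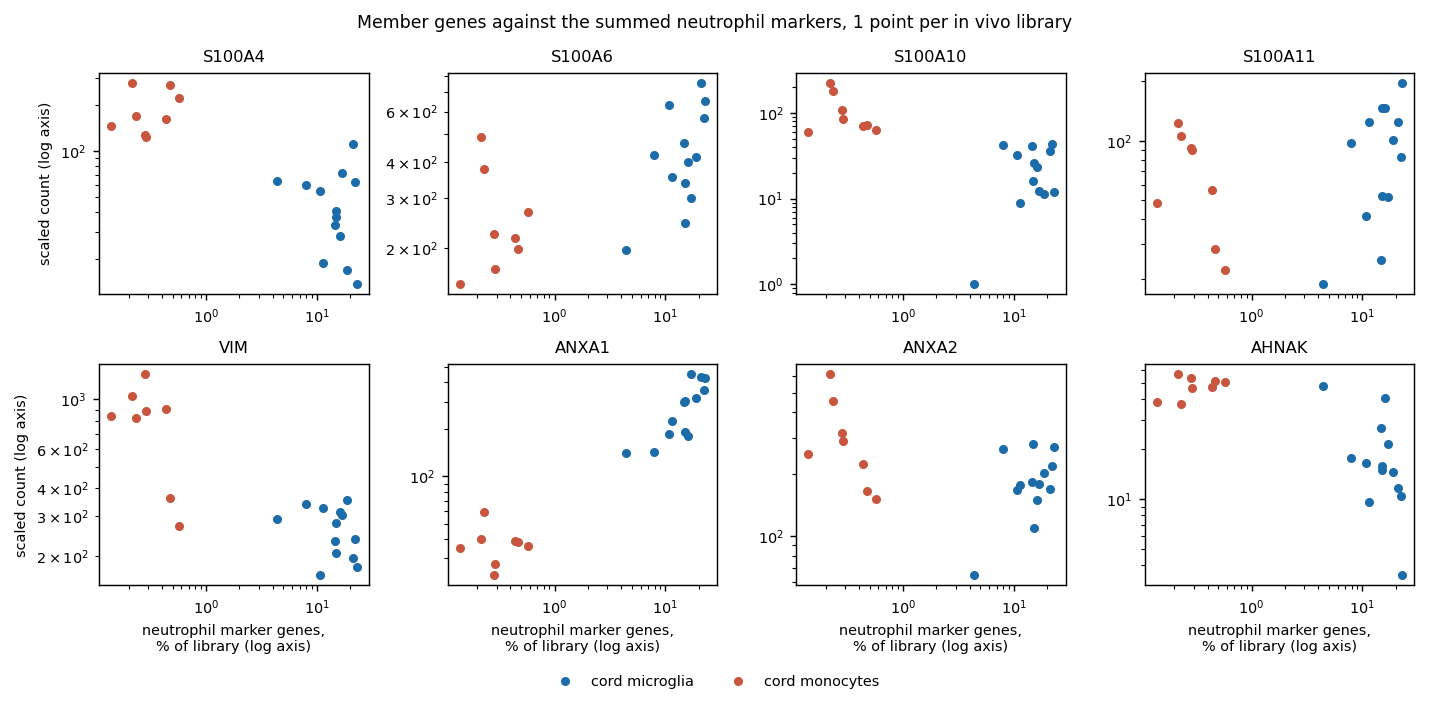
Scaled count of each of the 8 genes (log axis) against the summed neutrophil markers as a percentage of the library (log axis), 1 point per in vivo library, microglia blue and monocytes red. The microglia libraries span 4.40 to 22.9% on the x axis, and ANXA1 is at 141 in the library with the lowest share at 425 in the one with the highest, and at its maximum of 449 at 17.0%.

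ANXA2 and AHNAK, the members that meet S100A10 at the membrane, were higher in monocytes by smaller or less certain margins. ANXA2 gave 291 and 316 at 16 h, 613 and 453 at day 1, 224 and 251 at day 3, and 167 and 152 at day 7 in monocytes, and 281 and 177, 265 and 168, 179 and 64.3, and 109 and 183 in microglia. Its groups overlapped at day 7 and its gap was widest at day 1. The mean difference was 0.77 ± 0.20 on the log2 scale (adjusted p 0.0134 by limma), and the call was lost without replicate 2 of microglia or replicate 1 of monocytes at day 1. AHNAK stayed between 37.6 and 56.6 in all 8 monocyte libraries. In microglia of the same times it gave 16.0 and 9.64, 17.8 and 16.6, 21.6 and 48.2, and 15.0 and 27.0, overlapping with monocytes through replicate 2 at day 3. Its difference was 1.25 ± 0.36 (adjusted p 0.0272 by limma), and no microglia library held more than 16.0 reads of it.

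Taken time by time, with 2 libraries against 2, fewer members passed. At 16 h S100A10 and VIM were higher, against 0.292% of all genes, and ANXA1 was lower, against 1.01%. At day 1 VIM alone was higher (0.146% of genes) and 0 of 8 were lower (0.56%), with 5 members at an unadjusted p under 0.05. S100A10 and VIM were higher at day 3 (0.304%) and ANXA1 lower (0.608%). At day 7 S100A4 was higher (0.219%) and ANXA1 lower (0.706%). The difference in VIM was 1.82, 1.97, 1.55 and 0.52 on the log2 scale at these times, that in S100A4 was 2.14, 1.89, 1.16 and 2.75, and that in ANXA1 was -3.31, -1.72, -2.74 and -2.66. These calls rest on pairs of libraries. S100A10 lost its call at day 3 without the microglia library in which no read was counted or without either monocyte library, and at 16 h without any 1 of the 4 libraries, as did S100A4 at day 7. VIM lost its call at 16 h without replicate 2 of monocytes, at day 1 without replicate 2 of microglia and at day 3 without either monocyte library. Quantile normalization moved the share of all calls that were higher from 33.3 to 45.5% at day 3 and from 23.7 to 37.7% at day 7.

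**Figure D3:**
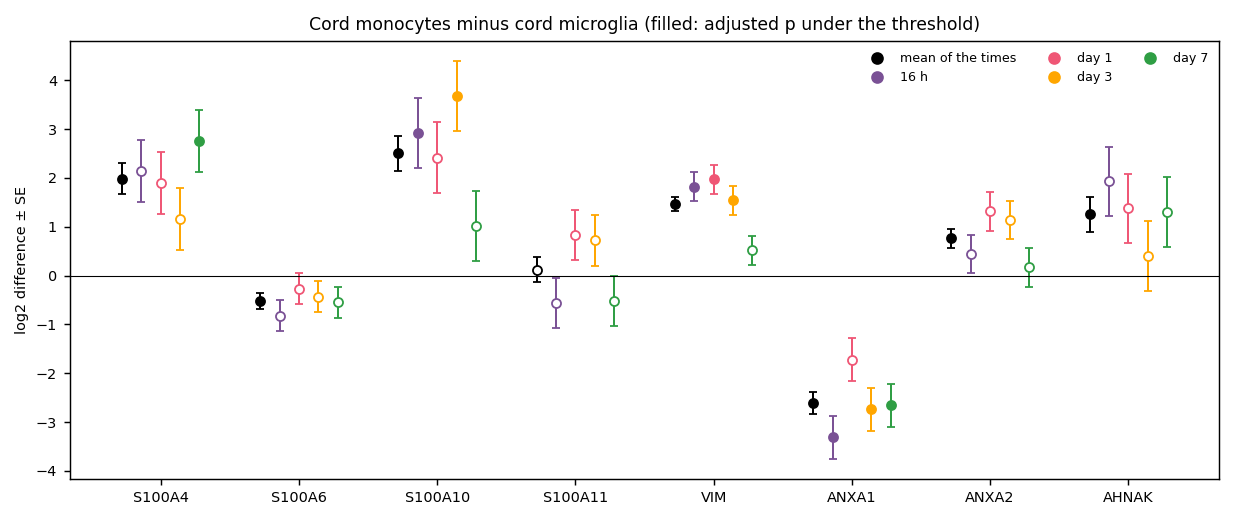
Log2 difference between cord monocytes and microglia for the 8 genes (points, with bars of 1 SE), as the mean of the shared times (black) and at each time (colours), with filled points where the adjusted p passed 0.05. ANXA1 lies below 0 at every time (mean -2.61) and S100A10 above it (mean 2.51), and the VIM point at day 7 (0.52) is the lowest of its row.

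A difference between the cells in the course from 16 h to day 7 was tested directly. Called were 0 members higher (0% of genes) and 0 lower (0.0122%, a single gene), with 1 member, VIM, at an unadjusted p under 0.05 by limma. The VIM contrast was -1.31, with a 95% interval of -2.16 to -0.45 and an adjusted p of 0.706. For S100A10 it was -1.90, with an interval of -4.00 to 0.19, wide enough to hold both no difference and a large one.

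Among microglia alone, 0 members passed at any time against time 0 by limma. The comparisons share the time 0 libraries. At 1 h 0.0243% of genes were called higher and 0.0487% lower, with 3 members at an unadjusted p under 0.05 (S100A6, VIM and AHNAK). Quantile normalization moved the share of these few calls that were higher from 33.3 to 60.0%. At 16 h the shares were 0.535% and 0.158%, and at day 1 they were 0.754% and 0.158%, with 0 members under 0.05 at either time. At day 3 they were 0% and 0%, although 1176 genes and 4 members (S100A6, S100A10, S100A11 and ANXA2) were under 0.05 unadjusted. At day 7 they were 0.292% and 0.146%, with 1 member under 0.05 (S100A11).

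S100A6 had its highest microglia values at 1 h, 651 and 754, against 571, 416 and 402 at time 0. ANXA1 was also at its highest mean there, with 425 and 434 against 358, 317 and 182, and the neutrophil share of the 1 h pair was 22.9% and 21.1%. S100A11 ran from 82.4, 101 and 146 at time 0 to 52.6 and 24.9 at day 7, a log2 difference of -1.53 with an adjusted p of 0.131. VIM stayed near its time 0 values of 239, 357 and 313 at 16 h and day 3, and stood below all of them at 1 h, at 179 and 196 (adjusted p 0.514 by limma), and at day 7, at 207 and 232 (adjusted p 0.441).

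The microglia pair of day 3 was split. Its replicates gave 449 and 141 for ANXA1, 301 and 197 for S100A6, 179 and 64.3 for ANXA2 and 51.9 and 18.8 for S100A11. The neutrophil share of the same libraries was 17.0% and 4.40%. Their estimated reads were 82702 and 31249 and their microglia markers 0.466% and 1.31%, so share and depth cannot be told apart here. In replicate 2, S100A11 rests on 4.67 reads, ANXA2 on 16 and S100A6 on 49, and no read of S100A10 was counted. VIM gave 304 and 293, S100A4 gave 72.1 and 64.3, and AHNAK was higher in the second, at 21.6 and 48.2. Without replicate 1, the library richer in neutrophil markers, 4 members were called lower at day 3: S100A10, S100A11, ANXA2 and S100A6. Calls over all genes then went from 0 to 525. Without replicate 2, no member was called. When the neutrophil share was added to a fit of the microglia alone, 0 members were called at any time. As 0 were called without it too, these counts cannot show its part. The ANXA1 difference at day 3 went from -0.13 to 0.98.

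Among monocytes, whose 3 later times share the 16 h libraries, VIM fell between 16 h and day 7, from 891 and 1293 to 364 and 271. The log2 change was -1.77 ± 0.30, a 3.41-fold drop with an adjusted p of 0.00103 by limma, and it was 1 of 8 members called lower, against 0.511% of genes, with 0 called higher, against 0.0852%. The call was lost without replicate 2 at 16 h (adjusted p 0.156) or replicate 2 at day 7 (0.0927). S100A11 changed by -1.83 (adjusted p 0.154) and ANXA2 by -0.93 (adjusted p 0.626), whereas S100A4 stood at 0.95 (adjusted p 0.999). The 11 microglia markers made up 0.0552% and 0.0270% of the monocyte libraries at 16 h and 0.251% and 0.358% at day 7, and 2 of them were called higher and 0 lower. Estimated reads were 728109 and 542551 at 16 h and 132117 and 152457 at day 7. The part of these differences in the VIM change was not tested. Quantile normalization moved the share of all calls that were higher from 14.3 to 28.1% here. PLAUR, the urokinase receptor and the 1 gene called among 8 partners and receptors, fell by 3.08 (adjusted p 0.00371 by limma).

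From 16 h to day 1, 0 members passed, with 0% of genes called higher and 0% lower. Here 114 genes and 2 members, S100A6 and ANXA1, were under an unadjusted p of 0.05 by limma. S100A6 went from 170 and 224 to 488 and 379 and S100A10 from 85.7 and 110 to 223 and 181, both without overlap. At day 3 against 16 h, 0 members passed and 0 were under 0.05 unadjusted, with 0.0365% of genes called higher and 0.134% lower.

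Genes that work with the members were examined as lists. Of 17 genes for filaments, membrane linkers and galectins, 8 were higher in monocytes and 1 lower over the shared times, with a median log2 difference of 0.80 against 0.05 for all genes. The 8 were LGALS1 (2.09), CRIP1 (2.08), LMNA (1.88), TMSB10 (1.48), LGALS3 (1.33), EMP3 (1.24), TAGLN2 (1.18) and PLEC (1.14), and the 1 lower was CORO1A (-0.57), a leukocyte actin-binding protein. LGALS3, a galectin of activated macrophages, had a mean of 545 ± 69.1 (SD, n = 2) in monocytes of 16 h and of 309 ± 6.93 in those of day 7, with 742 ± 1.92 and 751 ± 57.9 on days 1 and 3. Of the 7 other annexins 0 passed by limma, with 2 under an unadjusted p of 0.05 and a median of 0.53. Of the 5 other S100 genes only S100A8 and S100A9 passed, both lower.

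In culture the picture was uniform. All 8 members were higher in macrophages than in microglia at 0 h and again at 16 and 20 h, in every library and under every setting tried, against 21.5% of genes called higher and 29.6% lower at 0 h and 27.2% and 36.9% at 16 and 20 h. The median log2 difference of the members was 3.97 at 0 h and 4.03 at 16 and 20 h. That of all genes was -0.13 and -0.15, and quantile normalization moved it to 0.03 at both, and raised the share of calls that were higher from 42.0 to 50.4% and from 42.4 to 51.0%. Cultured microglia carried the microglia transcription factor SALL1 at 35.6 ± 2.13 at 0 h (SD, n = 2), and cultured macrophages were listed at 1 for it throughout. The 10 neutrophil markers measured summed to 0.0384 to 0.0692% of any cultured library.

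**Figure D4:**
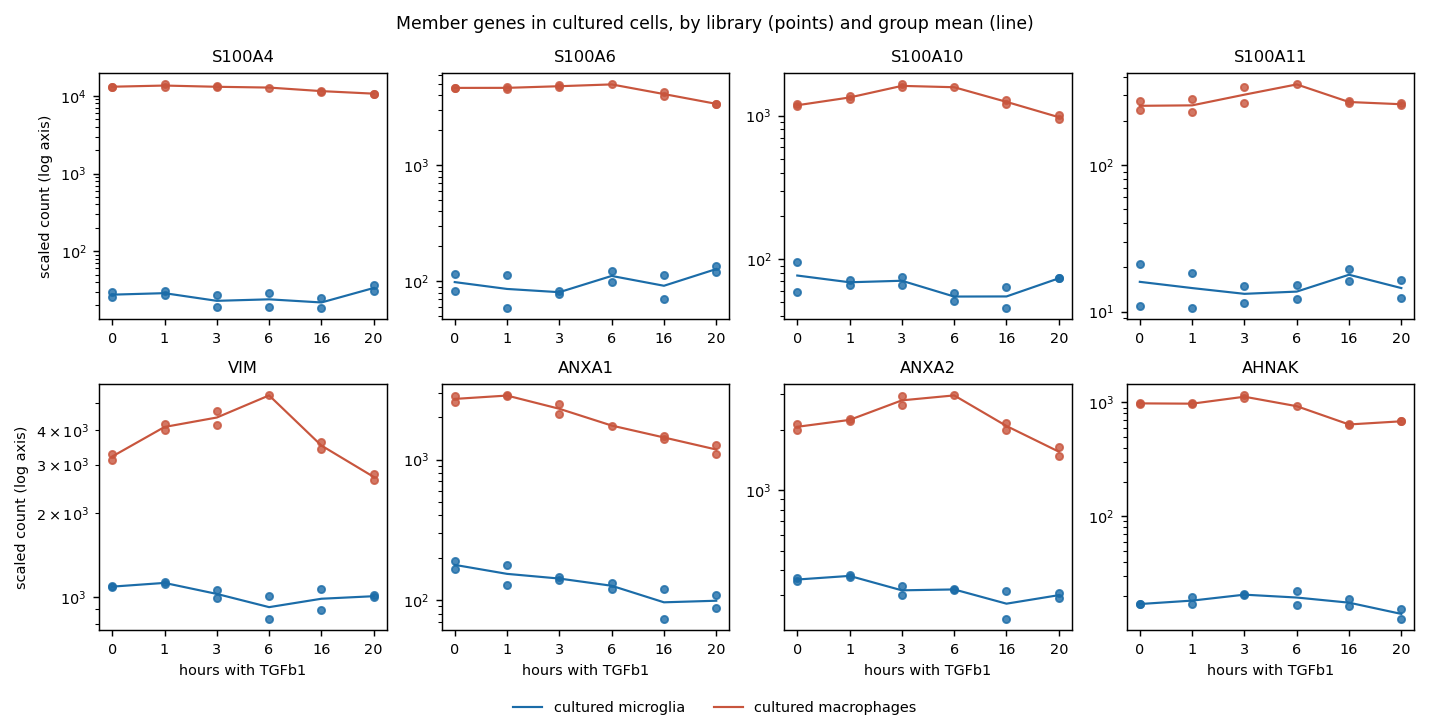
Scaled counts of the 8 genes in each cultured library (points, log axis) and the mean of each time (lines) against hours with TGFb1, for microglia (blue) and macrophages (red). Macrophages lie above microglia throughout, from a 2.95-fold gap for VIM to 462-fold for S100A4 at 0 h.

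S100A4 had the widest gap of the 8. Its value at 0 h was 13130 and 13142 in macrophages and 25.4 and 29.7 in microglia. The log2 difference was 8.85 ± 0.16, or 462-fold (adjusted p 2.7e-19 by limma). S100A6 gave 4664 and 4624 against 82.0 and 115, a log2 difference of 5.57 ± 0.22, and AHNAK gave 995 and 962 against 17.0 and 16.9, a difference of 5.77 ± 0.14. S100A10 gave 1160 and 1199 against 58.8 and 94.6 (3.96 ± 0.16). S100A11 gave 270 and 235 against 10.9 and 21.0 (3.97 ± 0.28). S100A6 and S100A11, which were not higher in cord monocytes, were thus 47.3-fold and 15.6-fold higher in cultured macrophages. The tables were scaled separately, and the cord and culture differences were not tested against each other. Only 4 of the 23 culture values of S100A11 and 2 of those of AHNAK were whole reads, against 22 or 23 for the other 6 genes. As in the cord, both are therefore uncertain, and so are their changes under TGFb1 below.

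The annexins and VIM differed by less. ANXA1 gave 2570 and 2836 in macrophages against 167 and 189 in microglia at 0 h, a log2 difference of 3.92 ± 0.17. ANXA2 gave 2002 and 2133 against 354 and 366 (2.52 ± 0.10), and VIM 3131 and 3290 against 1081 and 1095 (1.56 ± 0.08). The smallest gap of the 8 was that of VIM. ANXA1 was higher in macrophages in culture and lower in monocytes in the cord.

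The related genes were mostly higher in cultured macrophages too. At 0 h, 14 of 17 filament and linker genes were higher and 1 lower (RDX, -0.60), with a median of 1.74. CRIP1 (3.69), LGALS3 (3.66) and TAGLN2 (2.65) were among those higher. Of the 7 other annexins 6 were higher, ANXA4 (1.59) and ANXA5 (1.22) among them, and ANXA3 was lower (-0.48). Of 6 other S100 genes 4 were higher, among them S100A8 (6.47) and S100A9 (6.44), and S100A16 (-3.85) and S100B (-3.72) were lower. Of 10 partners and receptors 3 were higher, PLAUR (1.23), PLAU (1.16) and MYH9 (0.31), and 3 lower, AGER (-1.73), FPR1 (-1.25) and SUGT1 (-0.59).

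Under TGFb1, the members called in macrophages were VIM and ANXA2 early and ANXA1 and AHNAK late. VIM went from 3131 and 3290 at 0 h to 4191 and 4018 at 1 h, 4696 and 4184 at 3 h and 5337 at 6 h, and was back at 3627 and 3407 at 16 h and 2784 and 2636 at 20 h. All libraries from 1 to 6 h were above those of 0 h, and those of 20 h were below them. At 1 h, 1 of 8 members, VIM, was called higher, against 2.08% of genes, and 0 lower, against 0.932%. The log2 change was 0.35 ± 0.08 (adjusted p 0.0139 by limma), and the call was lost when the macrophages were fitted alone. At 3 and 6 h it was 0.60 ± 0.07 (adjusted p 1.01e-05).

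ANXA2 followed a like course. It was 2002 and 2133 at 0 h, 2657 and 2941 at 3 h, 2962 at 6 h, 2002 and 2171 at 16 h and 1639 and 1473 at 20 h. The change at 3 and 6 h was 0.48 ± 0.10 (adjusted p 0.00195 by limma). Thus 2 of 8 members were called higher at 3 and 6 h, against 6.8% of genes, and 0 lower, against 6.44%. S100A10, which pairs with ANXA2, was at 1160 and 1199 at 0 h, 1648 and 1571 at 3 h and 1575 at 6 h, a change of 0.43 ± 0.15 that did not pass (adjusted p 0.0679) but did in a fit of the macrophages alone. MYH9 (0.84), PLAUR (1.49), PLEC (1.05), FLNA (0.62) and LMNA (0.87) were also called higher at 3 and 6 h, and 7 of 17 filament and linker genes were higher and 2 lower.

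ANXA1 was lower in macrophages late in the series, after values at 1 h that were not below those of 0 h. It was 2570 and 2836 at 0 h, 2848 and 2863 at 1 h, 2124 and 2475 at 3 h, 1747 at 6 h, 1483 and 1390 at 16 h and 1097 and 1261 at 20 h. Every library from 3 h on was below those of 0 h. The change at 16 and 20 h was -1.05 ± 0.15, a 2.08-fold drop (adjusted p 3.77e-05 by limma). AHNAK was 995 and 962 at 0 h, higher at 3 h, at 1150 and 1089, and 924 at 6 h. It was 645 and 633 at 16 h and 681 and 682 at 20 h, a late change of -0.57 ± 0.12 (adjusted p 0.00336 by limma). These were the 2 members called lower at 16 and 20 h, against 5.94% of genes, and 0 were called higher, against 6.32%. S100A4 went from 13130 and 13142 to 10676 at the lowest at 20 h, a change of -0.24 ± 0.14 that did not pass (adjusted p 0.307 by limma). In a fit of the macrophages alone, S100A4 and S100A6 (-0.32) were called too, which made 4.

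Of the 7 other annexins, 4 were lower in macrophages at 16 and 20 h and 1 higher, with a median of -0.55 against 0 for all genes. Those lower were ANXA9 (-1.08), ANXA4 (-0.69), ANXA7 (-0.56) and ANXA5 (-0.55), and ANXA3 was higher (0.47). Of the filament and linker genes 6 were lower, including LGALS3 and TMSB10 (both -0.82), TLN1 (-0.79) and CAPG (-0.62), and 2 were higher, LMNB1 (0.49) and MSN (0.43).

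In cultured microglia ANXA1 changed the same way from a much lower level. It was 167 and 189 at 0 h, 129 and 179 at 1 h, 146 and 138 at 3 h, 121 and 132 at 6 h, 73.3 and 119 at 16 h and 109 and 88.5 at 20 h. All libraries from 3 h on were below those of 0 h. The change at 16 and 20 h was -0.88 ± 0.15, a 1.84-fold drop (adjusted p 0.00114 by limma). ANXA2 went from 354 and 366 at 0 h to 317 and 229 at 16 h and 310 and 292 at 20 h, a change of -0.34 ± 0.09 (adjusted p 0.044), whose call was lost in 6 of 13 other settings. The ANXA1 call was lost without replicate 2 at 0 h. These 2 were called lower at 16 and 20 h, against 1.51% of genes, and 0 higher, against 1.5%.

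At 1 h in microglia 0 members passed by limma and 0 were under an unadjusted p of 0.05, with 0.243% of genes called higher and 0.0973% lower. At 3 and 6 h 0 passed and 2 were under 0.05, VIM and ANXA1, with 0.608% called higher and 0.551% lower. VIM did not show the early course of macrophages here, with values of 990.5 and 1058 at 3 h and 1003 and 832 at 6 h against 1081 and 1095 at 0 h. The difference between the cells in the early change was not tested. Of the filament and linker genes 7 of 17 were lower at 16 and 20 h and 0 higher, LGALS3 (-0.34) and LGALS1 (-0.28) among them.

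**Figure D5:**
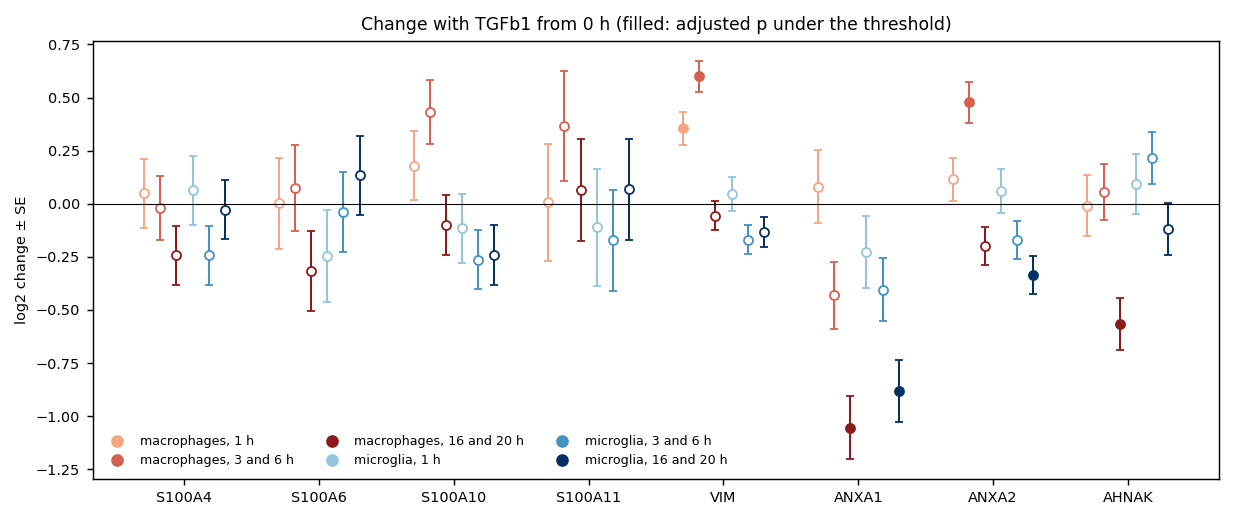
Log2 change of the 8 genes with TGFb1 against 0 h (points, with bars of 1 SE) in cultured macrophages (red shades) and microglia (blue shades) at 1 h, 3 and 6 h, and 16 and 20 h, with filled points where the adjusted p passed 0.05. ANXA1 is lowest at 16 and 20 h in both cells (-1.05 and -0.88), and VIM is above 0 in macrophages at 1 h and at 3 and 6 h (0.35 and 0.60).

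Whether the late TGFb1 change differed between the cells was tested directly. Called were 0 members higher, against 2.49% of genes, and 0 lower, against 1.89%, with 1 member, AHNAK, at an unadjusted p under 0.05 by limma. For AHNAK the difference was -0.45, with a 95% interval of -0.81 to -0.08 and an adjusted p of 0.181. For ANXA1 it was -0.17, with an interval of -0.61 to 0.26, and for VIM 0.08, with an interval of -0.13 to 0.28.

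The genes whose mean levels were most like the 8 were named by their mean Pearson correlation with the members over groups. Over the 10 in vivo groups and 2542 genes, PGK1 (0.40), PF4 (0.38), PRELID1 (0.38), TIMP1 (0.38) and RAB32 (0.37) came first. No gene could follow all 8, since the members themselves were opposed: S100A4 had a correlation of 0.85 with AHNAK and 0.70 with S100A10 but -0.89 with ANXA1. Over the 12 culture groups and 10379 genes, EMP3 (0.994), F7 (0.993), TAGLN2 (0.993), NCF4 (0.992) and OAZ1 (0.992) came first. The culture groups fall into 2 clusters by cell, so these values reflect the gap between macrophages and microglia. They are descriptions, and the groups of a table share their cells, scaling and depth.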

How the data were processed

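RNA from sorted or cultured mouse cells was extracted with miRNeasy, per the labels' protocols, and reads were aligned with TopHat to mm9, per the submitters' processing notes. No source used here says how reads were counted, annotated or scaled. The unit of the deposited values is signal: counts per gene that the authors scaled. In each library 86.5 to 90.2% of the low values (up to 20 reads) were whole multiples of 1 step within 0.05 steps, and that step was read as 1 read. A gene with no counted read was listed at 1, and no value was 0. Where 1 read was worth less than 1, counted genes could have values below 1. In the cord monocyte libraries, where 1 read was worth 0.170 to 0.850, a gene with no counted read thus stood above a gene with 1 read. Since not all values were whole, no count test was run. A line with no gene name (at most 0.0165% of a library) was left out.

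The 8 members, the 16 lists and the comparisons were chosen with earlier results of these data known. The limma package (3.58.1, R 4.3.3) fitted log2(value + 1), with 1 mean per group over all groups of a table and empirical Bayes with trend and robust options. Each of the 23 comparisons was adjusted by Benjamini-Hochberg over all genes and called under 0.05. A fold is the log2 difference raised back, and the pseudocount understates that of low genes. Means over times or hours weight each group equally. The tables were scaled separately and tested separately. The text names the 8 members, list genes that passed, and the 5 genes most alike in each table. The fit was also run on simulated counts with known changes. These had a fixed spread and no mixture of cells, so they do not vouch for the fit of the cord libraries. Alternatives were a pseudocount of 5, a filter at a mean of 10, quantile and median-ratio scaling, no trend, array weights, values of 1 set to 0, single cell types fitted alone, a neutrophil covariate, the replicate block and each library left out. A fit without both of the shallowest microglia libraries was added after seeing the data. Sequences are RefSeq's, and coordinates of mm9 were not used. Python 3.11.15 and matplotlib 3.10.9 drew the figures.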

Additional observations from a re-analysis of the deposited data

How the results depend on the processing

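Of 2696 values of the members under other settings, 2478 kept their sign and call, 65 lost a call, 32 gained one, 0 called values changed sign and 121 uncalled values did. Counts below are members called, with the count of the report first. Between cord monocytes and microglia at day 1, the count went from 1 to 2 with a pseudocount of 5, with a filter at a mean of 10 and with median-ratio scaling, and to 3 without both of the shallowest microglia libraries, a setting chosen after seeing the data. Without trend and robust options it went from 3 to 1 at 16 h, from 1 to 0 at day 1, from 2 to 1 at day 7, from 1 to 0 for monocytes at day 7 against 16 h, from 1 to 0 for macrophages at 1 h of TGFb1 and from 2 to 1 for cultured microglia at 16 and 20 h. Array weights gave 6 at 16 h, 5 at day 1 and 1 at day 7, and for monocytes against 16 h they gave 3 at day 1, 1 at day 3 and 3 at day 7. The macrophages alone gave 0 at 1 h and 4 at 16 and 20 h, both with and without the replicate block. The cause of these moves was not tested.

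With 1 library left out, the count ranged from 4 to 7 for the mean of the shared times, 1 to 2 at 16 h, 0 to 1 at day 1, 1 to 4 at day 3 and was 1 at day 7. It ranged from 0 to 4 for microglia at day 3 and 0 to 1 at day 7 against time 0, 0 to 1 for monocytes at day 7 against 16 h, 0 to 1 for macrophages at 1 h and 0 to 2 for cultured microglia at 16 and 20 h. The lone sample left in a group is assumed to vary like the others. In the cord the replicate block left 7 members called for the mean of the shared times and changed no other count of members. Where labels number the replicates, the numbers did not pair the libraries: deviations of same-numbered libraries correlated between -0.075 and 0.130 over 45 pairs of cord groups, 1 of them over 0.1, and 0 of 10 pairs of the 5 macrophage groups with 2 lettered libraries were over 0.1. The sample titles give cultured microglia no replicate number. The column headers of the values letter them a and b, but these pairs were not checked. At 16 h the replicate numbers used here run against those letters.

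Counts over all genes moved further. Array weights took them from 107 to 453 at 16 h, 58 to 240 at day 1 and 76 to 22 at day 7, and for monocytes against 16 h from 0 to 162, 14 to 462 and 49 to 614. Without both shallowest libraries they went from 58 to 110 at day 1, 75 to 142 at day 3 and 76 to 181 at day 7. The macrophages alone gave 93 against 371 at 1 h, 720 against 1633 and 712 against 1513, and 54, 486 and 594 with the replicate block. With 1 library left out, where the count moved by over 1.5 times, it went between monocytes and microglia from 622 to 381 at the lowest for the mean of the times, 107 to 28 at 16 h, 58 to 21 at day 1, 75 to between 21 and 295 at day 3 and 76 to between 17 and 287 at day 7. For microglia against time 0 it went from 6 to between 2 and 12 at 1 h, 57 to 2 at 16 h, 75 to 17 at day 1, 0 to 525 at day 3 and 36 to 352 at day 7. Monocytes against 16 h went from 14 to 1 at day 3 and 49 to 13 at day 7, and cultured microglia from 42 to 15, 143 to 66 and 371 to 166 with TGFb1. The tests between changes went from 1 to 61 in the cord and 540 to 309 in culture. The shares of all genes in the report rest on these counts. Depth limits the cord microglia most: S100A10 and AHNAK rest on 38 reads or fewer per library there. S100A4 falls to 6 reads at time 0 and 8 at day 7, and S100A11 to 4.67 at day 3 and 6 at day 7.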
